A study of Mus musculus with 35 samples.

Results

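The regions described here are dense clusters of open chromatin that carried neither of the histone marks profiled in the study. The merged ATAC-seq table lists 36431 open regions, here called rows, and 35931 of them lie on chromosomes 1 to 19. Of these autosomal rows, 11091 overlapped a row of the H3K4me3 table and 3372 a row of the H3K27me3 table, with 1510 overlapping both. The other 22978 rows (64.0% of the autosomal rows) were unmarked by this rule. Unmarked rows less than 12.5 kb apart were stitched together into 17670 units, and the 300 units with the largest summed row length were kept as clusters. They hold 1104 member rows, which is 4.80% of the unmarked rows and 3.03% of the whole table. The RPKM values took no part in that choice, but row length did, so length and number of rows are a description and not a finding. Row limits come from peaks called in these same ATAC-seq libraries, so differences from Ctr may not be independent of the choice. The part of this in the differences was not tested.

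ATAC-seq inserts sequencing adapters into DNA that is free of nucleosomes, so that promoters, enhancers and insulators appear as peaks. H3K4me3 is the histone mark of active promoters, and H3K27me3 is laid down by the Polycomb complex over silent developmental genes. Open regions with neither mark are therefore mostly expected away from active promoters, and several of them packed closely together are the arrangement known from large distal regulatory domains of cell identity genes. No enhancer mark such as H3K27ac was profiled, so the clusters are called by their rule and not by a class of element.

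All cells were mouse embryonic fibroblasts (MEFs), taken from mid-gestation ICR embryos and sampled on day 4 of the chemical induction of extraembryonic endoderm (XEN)-like cells. There were 7 treatments with 2 ATAC-seq libraries each. C6FAE, the complete cocktail, combines CHIR99021 (C, an inhibitor of the kinase GSK3), RepSox (6, an inhibitor of the TGF-beta receptor ALK5), Forskolin (F, which raises cAMP), AM580 (A, an agonist of the retinoic acid receptor) and EPZ004777 (E, an inhibitor of the histone methyltransferase DOT1L). The treatment 6FAE lacked C, CFAE lacked 6 and C6AE lacked F, so that A and E were shared by these and by C6FAE. The labels AE, Basal and Ctr are used as given. AE is read as A with E, the sources do not say what Basal contained, and Ctr is the control. H3K4me3 and H3K27me3 ChIP-seq had 1 library per treatment for the 6 treatments other than Ctr. Separate cultures are stated for Ctr and C6FAE only, so for the other treatments the spread between libraries may be technical. MEFs are a mixed population, and fewer cells with an open region cannot be told apart from a weaker opening in every cell.

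Each library held 3346418 to 8764791 tags. Every value per library comes from its list of peaks. It is the sum over the listed peaks of pileup (the number of extended tags stacked on a base) times overlapped length, divided by row length and scaled to 1000000 tags, and is called the listed pileup. The listed pileup of a cluster rested on a median of 31.1 tags in the shallowest library, C6AE replicate 2, and 148 tags in the deepest, 6FAE replicate 2. The same medians for a single member row were 6.49 and 32.2 tags, so clusters were measured more precisely than rows. The counting error behind such values assumes independent tags, which PCR copies are not.

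The 300 clusters ranged from 8074 to 28584 bp of summed row length, with a median of 9975 bp, spread over a median span of 25656 bp. They contained between 1 and 9 rows with a median of 4. Of all clusters, 229 had 3 or more rows, 34 had 6 or more, and 18 were a single broad row. At the border of the choice, cluster 300 had 8074 bp in 2 rows and the first unit left out had 8072 bp in 3 rows. Member rows had a median length of 2308 bp, against 1069 bp for the other unmarked rows, which is a consequence of the rule. The start and end of member rows came most often from C6FAE replicate 1 (19.5% of the limits) and least often from Ctr replicate 2 (0.861%). Over all rows these shares were 18.7% and 2.21%. Some treated libraries also set few of the limits of the table, with 1.92% from 6FAE replicate 1, the lowest of all, and Ctr replicate 1 set 4.24%.

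The 5 largest clusters, given as positions in build mm9, show what the set contains. Cluster 1 is at chr4:138765181-138824574, where 7 rows cover 28584 bp, or 48.1% of the span. Cluster 2 is at chr12:88108729-88176301 with 8 rows, cluster 3 at chr4:154498814-154553063 with 6 rows, cluster 4 at chr11:87235000-87286539 with 5 rows and cluster 5 at chr2:167585489-167628462 with 4 rows. None of these 5 contains a marked row. The distance from their edge to the nearest H3K4me3 row ranged from 12747 bp for cluster 1 to 65845 bp for cluster 5. Genes are not named, because no annotation of build mm9 was used here.

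The clusters were found on all 19 autosomes. Chromosome 2 carried most of them, with 31 clusters and 108 member rows, and chromosome 16 fewest, with 8 clusters and 27 rows. As a share of the unmarked rows of the chromosome, the members ranged from 2.44% on chromosome 6 to 6.87% on chromosome 8. H3K4me3 was closer to the clusters than to the other stitched units. The median distance from the midpoint to the nearest H3K4me3 row was 35302 bp for the 300 clusters and 57130 bp for the other 17370 units. For H3K27me3 the medians were 58542 bp and 58033 bp. Within 100000 bp of the midpoint, the median number of H3K4me3 rows was 2 for the clusters and 1 for the other units. For H3K27me3 rows these medians were also 2 and 1, so the higher count near the clusters was not particular to H3K4me3. These distances were not tested, and the larger span of the clusters enters them. Only 18 clusters (6.00%) enclosed a marked open row between their own rows.

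The label unmarked was next checked in the single ChIP-seq libraries, which the rule had used only through the merged tables. Counting peaks whose MACS -log10 q reached 1.3, H3K27me3 peaks were nearly absent from the members, with 0 to 5 of the 1104 rows overlapped in each library. The highest share was 0.453% in C6AE (95% Wilson interval 0.194 to 1.06%). The 4 libraries of AE, 6FAE, CFAE and C6FAE gave 0 members, which allows up to 0.347% by the same interval. The H3K27me3 libraries of 6FAE, CFAE and C6FAE had 74, 136 and 82 such peaks in the whole genome, so that their lack of overlap carries little information.

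H3K4me3 was not absent in the same sense. Between 84 members (7.61%, 95% interval 6.19 to 9.32%) in C6FAE and 253 members (22.9%, 20.5 to 25.5%) in CFAE lay under a listed H3K4me3 peak at that threshold. Of the other unmarked rows, 4.00% in C6FAE and 11.7% in CFAE did so. The rows marked in the merged H3K4me3 table were overlapped in 97.9 to 99.8% of cases. With a limit of 5 on -log10 q, the share of members fell to between 0.272% in C6AE and 5.07% in Basal. The members are longer than the other unmarked rows, which alone gives them more overlaps, and the part of length in the difference was not tested. With 1 library per treatment, no comparison of H3K4me3 between treatments was made.

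**Figure D1:**
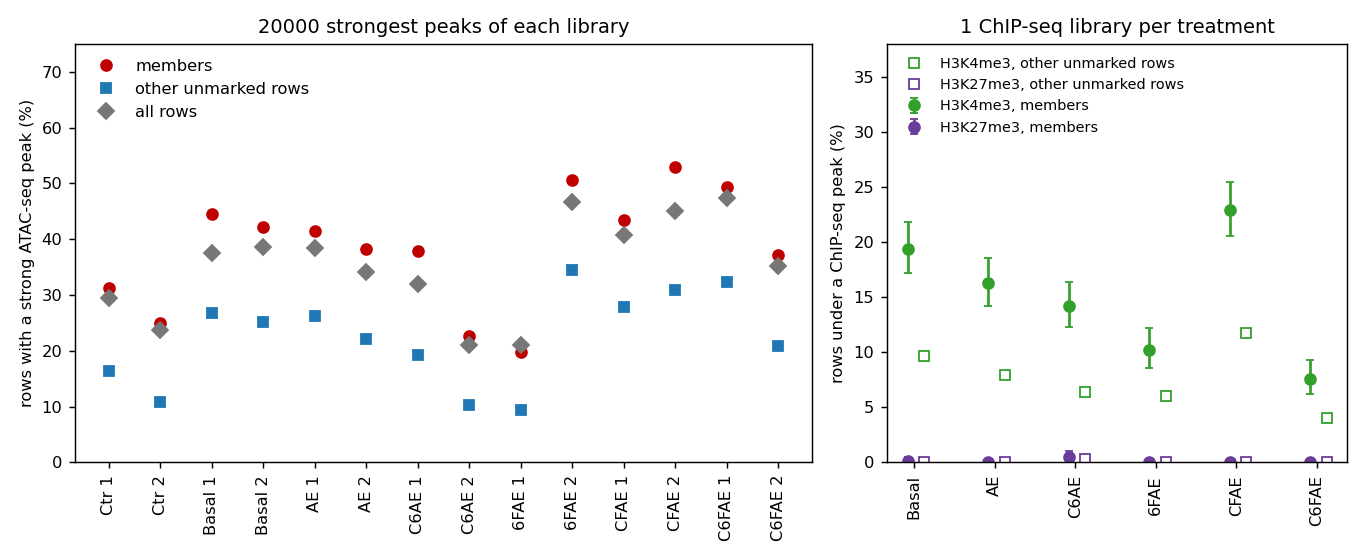
Left, percentage of rows that overlapped one of the 20000 strongest ATAC-seq peaks of each library (circles, 1104 members; squares, 21874 other unmarked rows; diamonds, all 36431 rows). Right, percentage of members (filled circles with 95% Wilson intervals) and other unmarked rows (open squares) under a ChIP-seq peak whose -log10 q reached 1.3, with 1 library per treatment. Members lie above the other unmarked rows in every ATAC-seq library, but below all rows in 6FAE replicate 1. H3K27me3 is near 0, and H3K4me3 reaches 22.9% of members in CFAE.

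Accessibility of the members was first read from the merged RPKM columns, which hold 1 value per treatment and so have no replicate error. The median RPKM of a member row was 11.4 in Ctr, 14.9 in Basal, 16.0 in AE, 12.8 in C6AE, 14.9 in 6FAE, 18.2 in CFAE and 17.4 in C6FAE. CFAE and C6FAE were therefore highest and Ctr lowest. Averaged over the rows of a cluster by length, the medians over the 300 clusters were 12.7 in Ctr, 13.3 in C6AE, 15.5 in 6FAE, 15.6 in Basal, 16.9 in AE, 18.0 in C6FAE and 18.9 in CFAE. The lowest cluster in Ctr stood at 4.33 RPKM and the highest cluster in C6FAE at 45.9 RPKM. The other unmarked rows were lower in each treatment, with medians of 9.31 RPKM in Ctr and 14.7 in C6FAE, and rows with H3K4me3 or H3K27me3 were higher, with 15.6 and 22.1 RPKM.

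**Figure D2:**
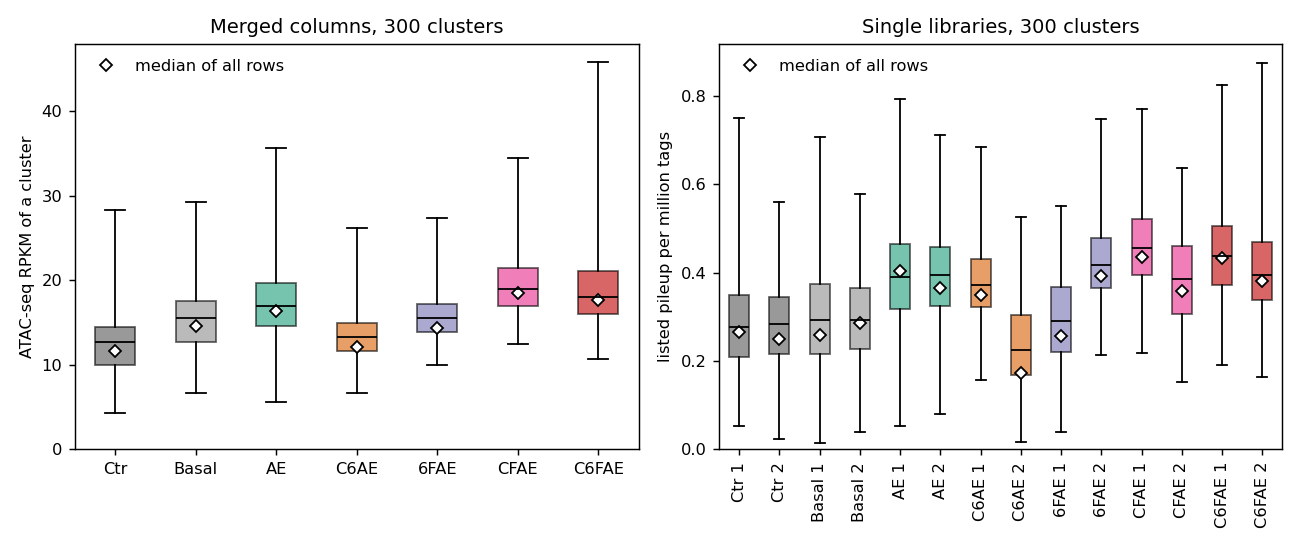
Accessibility of the 300 clusters. Left, merged ATAC-seq RPKM per treatment. Right, listed pileup in each of the 14 libraries. Boxes show quartiles and median, whiskers the lowest and highest cluster, and diamonds the median of all 36431 rows. Clusters and table follow the same order, from a cluster median of 12.7 RPKM in Ctr to 18.9 in CFAE, and C6AE replicate 2 and 6FAE replicate 1 sit below the other library of their treatment.

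On the log2(RPKM + 1) scale, which understates changes of low rows, the members were higher in every treatment than in Ctr. The median difference over the 1104 members was 0.54 in C6FAE (95% order-statistic interval over rows 0.49 to 0.58) and 0.61 in CFAE (0.57 to 0.66). It was 0.40 in AE (0.37 to 0.45), 0.30 in 6FAE (0.27 to 0.35), 0.28 in Basal (0.24 to 0.33) and 0.12 in C6AE (0.06 to 0.17). The intervals describe the spread over rows of a single merged column and not between cultures. The whole table moved alike, with medians of 0.50 in C6FAE, 0.56 in CFAE, 0.39 in AE, 0.24 in 6FAE, 0.23 in Basal and 0.03 in C6AE. Set against that shift, the members stood higher than the table by less than 0.1 in each treatment. When each column was centred on its own median, the difference over members became -0.03 for C6FAE and -0.03 for CFAE.

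Differences of at least 2-fold were counted next. In C6FAE, 289 members (26.2%) were at least 2-fold higher than in Ctr, beside 25.1% of all rows. The count at least 2-fold lower was 19 members (1.72%), beside 4.42% of all rows. In CFAE, 305 members (27.6%) were at least 2-fold higher than in Ctr, beside 26.7% of all rows. Against C6AE, 130 members (11.8%) were at least 2-fold higher in C6FAE, beside 18.5% of all rows. Against 6FAE the numbers were 61 members (5.53%) beside 8.17%, and against CFAE 24 members (2.17%) beside 3.72%. The shares of members higher than Ctr were near those of the table, and the other 4 shares were below those of the table. Members are longer than most rows, so their RPKM varies less, and the part of length in these shares was not tested. Averaged over each cluster, 94.0% of the 300 clusters were higher in C6FAE than in Ctr, beside 78.9% of all features when stitched units and the remaining rows are counted alike. At least 2-fold higher were 39 clusters (13.0%), beside 23.3% of all features, and at least 2-fold lower were 0, beside 3.83%. Averages over several rows vary less than single rows.

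The libraries were then set against each other over the 300 clusters, before any comparison between treatments. The points of each correlation are the log2 listed pileup of the clusters in 2 libraries, and they share the row limits of the merged table. The libraries of Ctr, Basal and AE were alike, with Pearson's r between 0.38 and 0.57 for every pair of them (n = 300 clusters). The 2 C6FAE libraries had r = 0.46 with each other and at most 0.19 with any library of Ctr, Basal or AE. The lowest value of all pairs was -0.08, between AE replicate 1 and C6FAE replicate 1. The order of the clusters by accessibility in C6FAE thus had little in common with their order in Ctr, Basal or AE.

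The 2 CFAE libraries had r = 0.19 with each other, and 0.23 to 0.35 with the C6FAE libraries. Of the remaining libraries, 2 stood apart from their own treatment. C6AE replicate 2 and 6FAE replicate 1 had r = 0.49 with each other, but 0.17 and 0.16 with the other library of their treatment. Both were closer to Ctr replicate 2, with 0.41 and 0.49. They also had the fewest peaks whose -log10 q reached 1.3, which were 810 in C6AE replicate 2 and 1027 in 6FAE replicate 1, against 1982 to 15909 in the other libraries. The share of members that held one of the 20000 strongest peaks of the library was lowest in the same 2 libraries. It was 19.8% in 6FAE replicate 1 and 22.6% in C6AE replicate 2, against 50.6% and 37.9% in the other library of each treatment. The Ctr libraries followed with 25% and 31.2%, and C6FAE had 49.4% and 37.2%. The highest share was 53.0% in CFAE replicate 2. Among the other unmarked rows the share was between 9.43% and 34.5%. Among all rows it was between 21.0% in 6FAE replicate 1, where the members were lower, and 47.5% in C6FAE replicate 1. Members are longer than the other unmarked rows, and the part of length in these shares was not tested. The part of library quality in these values was not tested. The counts of limma calls and of clusters that did not overlap are given below also without these libraries. The merged RPKM columns cannot be split by library, and the recurrence between replicates needs both libraries, so these values include them.

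**Figure D3:**
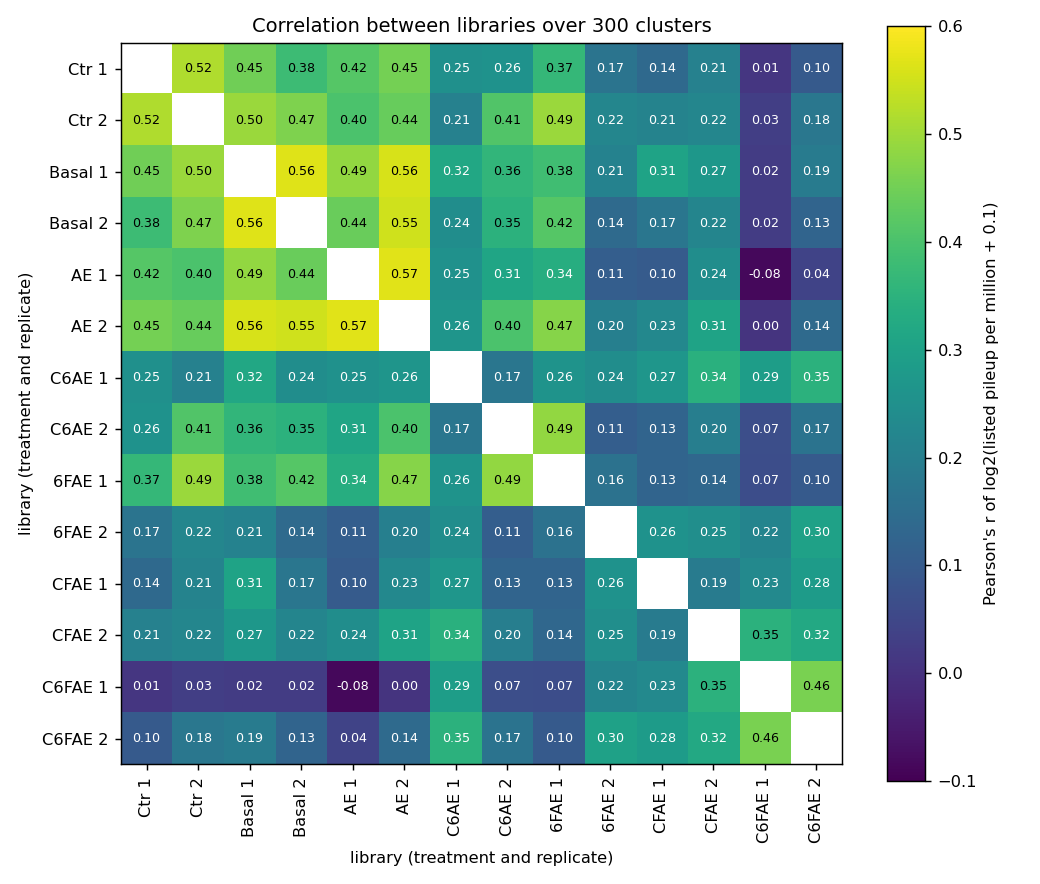
Pearson's r between the 14 ATAC-seq libraries over the 300 clusters, from the log2 listed pileup (n = 300 clusters for each value). Ctr, Basal and AE form a block of 0.38 to 0.57, C6FAE correlates least with that block, and C6AE replicate 2 and 6FAE replicate 1 correlate with each other at 0.49.

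The merged columns gave the same picture of the order of the clusters. Over 300 clusters, log2(RPKM + 1) in C6FAE had r = 0.25 with Ctr, 0.22 with Basal and 0.14 with AE. It had 0.64 with CFAE, 0.48 with 6FAE and 0.44 with C6AE. Basal and AE had r = 0.77, and Ctr had 0.68 with Basal and 0.63 with AE. The same coefficients over all 36431 rows were 0.40 for C6FAE with Ctr and 0.69 for C6FAE with CFAE.

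Whether the differences between clusters recur was read from separate libraries. The difference from replicate 1 of both treatments and that from replicate 2 of both share no library, and had r = 0.48 over the 300 clusters. With the replicates crossed it was 0.44. Similar values were found for C6FAE against AE (0.52, crossed 0.51) and against Basal (0.45, crossed 0.51). It was lower for C6FAE against 6FAE (0.19, crossed 0.17) and C6AE (0.14, crossed 0.09), and near 0 against CFAE (0.01, crossed 0.07). The other treatments against Ctr gave 0.255 for CFAE (crossed 0.30), 0.20 for AE (crossed 0.20) and 0.19 for Basal (crossed 0.14). They gave 0.17 for C6AE (crossed 0.03) and 0.07 for 6FAE (crossed 0.12), so these 2 have no stable order. Over single member rows the value for C6FAE against Ctr was 0.25, and over the other unmarked rows 0.25 as well. A cluster holds more tags than a row, and the part of that in the higher value over clusters was not tested. The values for C6AE and 6FAE include the 2 libraries that stood apart, and those for CFAE rest on 2 libraries with r = 0.19.

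**Figure D4:**
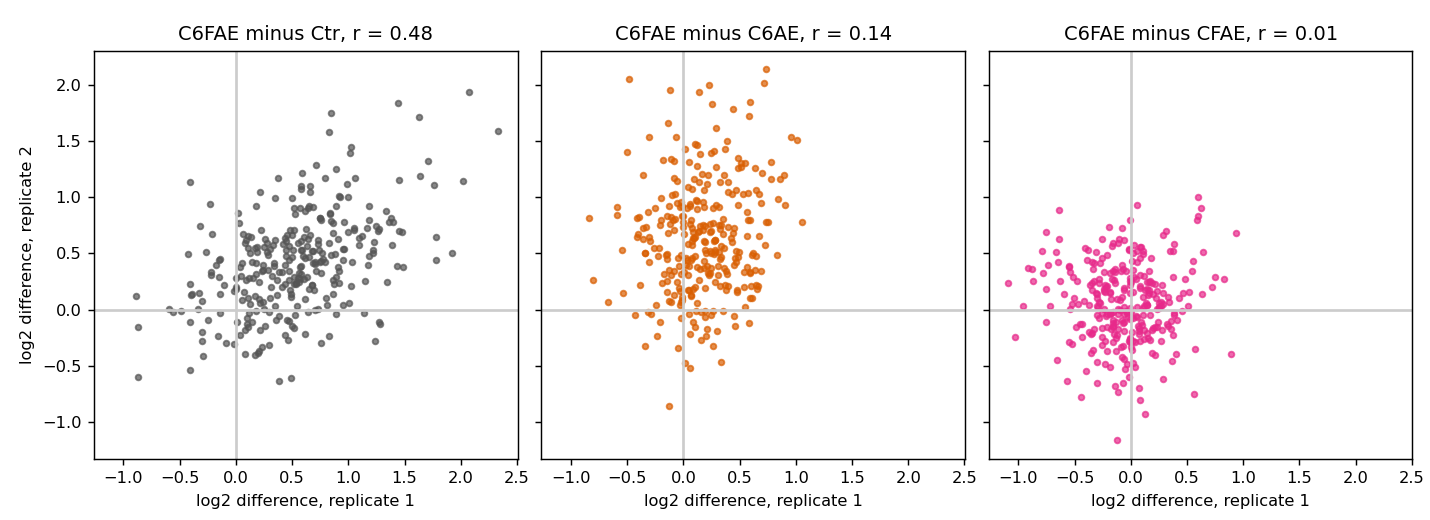
Difference of log2 listed pileup of each cluster between C6FAE and Ctr, C6AE or CFAE, from replicate 1 of both treatments (horizontal) and from replicate 2 of both (vertical). Each point is 1 of 300 clusters and r is Pearson's. The differences recur between replicates against Ctr (0.48), less against C6AE (0.14) and least against CFAE (0.01).

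The direction of that recurring difference was followed through the other treatments. The 50 clusters with the largest positive and the 50 with the largest negative difference between C6FAE and Ctr, here called gaining and losing, were chosen in replicate 1 and read in the libraries that the choice had not used, relative to the median of all 300 clusters in each library. The gaining clusters stood lower in Ctr replicate 2 (-0.27 on the log2 scale), Basal (-0.30 and -0.24) and AE (-0.18 and -0.28). In C6FAE replicate 2 they stood at 0.05. They stood at -0.01 and -0.06 in CFAE, -0.24 and -0.05 in 6FAE, and -0.07 and -0.22 in C6AE. The lower values of the last 2 treatments are those of 6FAE replicate 1 and C6AE replicate 2. The losing clusters stood at 0.13 in Ctr replicate 2, 0.08 and 0.06 in Basal, and 0.12 and 0.02 in AE. In CFAE they stood at -0.02 and -0.17 and in C6FAE replicate 2 at -0.09, which is the opposite order. In 6FAE they stood at 0.08 and -0.01, and in C6AE at -0.04 and -0.01. With this choice, the gaining and the losing clusters both stood below the middle of the set in C6AE, the losing ones by little. Chosen in replicate 2 instead, the gaining clusters stood at -0.23 in Ctr replicate 1 and 0.12 in C6FAE replicate 1. The losing clusters then stood at 0.17 and -0.15. In C6AE the second choice gave 0.055 and -0.10 for the gaining and -0.0049 and 0.024 for the losing clusters. Their place in C6AE therefore changed with the choice. The gaining clusters stood on the less accessible side of the set in Ctr, Basal and AE, and close to the middle of the set in CFAE. In the libraries of the first choice they stood at -0.65 in Ctr replicate 1 and 0.16 in C6FAE replicate 1. The choice thus drew mainly on low values in Ctr, with which the Basal and AE libraries correlate. The part of the choice in these positions was not tested. This reading was chosen after the data were seen and carries no test.

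In the fit of limma across all 36431 rows, with 2 libraries per treatment and Benjamini-Hochberg adjustment, 1 member was higher in C6FAE than in Ctr at an adjusted p under 0.05 and none was lower. This is 0.0906% of the members, beside 0.0467% of all rows called higher and 0.011% called lower. At an unadjusted p under 0.05, 142 members (12.9%) were higher, beside 11.9% of all rows, and 17 members (1.54%) were lower, beside 1.71%. At this limit the shares of members were near those of all rows. Without CFAE replicate 1 or CFAE replicate 2, 0 members were called higher, beside 0.00549% and 0% of all rows. With a Ctr or C6FAE library left out, that treatment rests on 1 library, so no count is given here. With the spread modelled by the tags in a row, a setting added after the data were seen, 13 members (1.18%) were higher, beside 0.236% of all rows. No member was called in the other 5 comparisons of limma. The table held few calls there too, with 0.00549% of all rows lower in C6FAE than in C6AE, 0.00274% lower than in 6FAE, 0.00274% lower than in CFAE, and 0.00274% higher in AE than in Basal. In Basal, 0.011% were higher and 0.00549% lower than in Ctr, and the other directions had 0. At an unadjusted p under 0.05, the members higher were 62 (5.62%) in C6FAE against C6AE, 28 (2.54%) against 6FAE and 8 (0.725%) against CFAE, beside 8.73%, 3.21% and 1.03% of all rows. They were 52 (4.71%) in AE against Basal and 60 (5.43%) in Basal against Ctr, beside 5.92% and 4.37% of all rows. Without C6AE replicate 1, where C6AE is represented only by the library that stood apart, 28 members (2.54%) were called higher in C6FAE than in C6AE, beside 2.88% of all rows, and without C6AE replicate 2 none was. Against 6FAE, none was called without either library, and at an unadjusted p under 0.05 the count of 28 became 10 (0.906%) without 6FAE replicate 1, beside 1.19% of all rows.

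The called row lies at chr4:144585957-144591415, is 5459 bp long and belongs to cluster 10. Its listed pileup was 0.0827 and 0.222 in Ctr, 0.377 and 0.360 in Basal, 0.899 and 0.716 in AE, and 0.914 and 1.03 in C6FAE. It was 0.558 and 0.697 in C6AE, 0.424 and 0.930 in 6FAE, and 0.772 and 0.974 in CFAE. Both Ctr libraries were below all 12 others, and both AE libraries were below both of C6FAE. Its merged RPKM was 10.1 in Ctr, 20.4 in Basal, 28.2 in AE and 45.6 in C6FAE. The log2 difference between C6FAE and Ctr was 2.14 (SE 0.34, limma adjusted p = 0.0126). It was no longer called without C6FAE replicate 1 (adjusted p = 0.162), C6FAE replicate 2 (0.349) or Ctr replicate 1 (0.0556). The same held without CFAE replicate 1 (0.0502) or CFAE replicate 2 (0.0615), which enter through the shared estimate of the spread, and after centring of each library on its median (0.120).

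Each stitched unit was also tested as a single feature beside all other rows, 31123 in all, with the spread modelled by the number of tags. This fit was added after the data were seen. Here 9 of the 300 clusters (3%) were higher in C6FAE than in Ctr, beside 0.251% of all features, and none was lower, beside 0.00643%. Clusters hold more tags than most features, which makes a call easier, and the part of that in the difference was not tested. With each library centred on its median over all rows, 1 cluster was higher and 1 lower (0.333% each), beside 0.0964% and 0.0578% of all features. After centring, the 9 clusters still differed by 0.64 to 1.53 on the log2 scale, and 8 of them were no longer past the threshold. Before centring, the median difference was 0.42 over all features and 0.45 over the clusters. The call also needed every library of both treatments, since 0 clusters remained called without any of Ctr replicate 1, Ctr replicate 2, C6FAE replicate 1 or C6FAE replicate 2. Leaving out a library of the other treatments changed only the estimate of the spread. It left 2 called without Basal replicate 1, Basal replicate 2 or CFAE replicate 1, beside 0.09%, 0.0932% and 0.0578% of all features. Without AE replicate 2 or CFAE replicate 2 it left 3, beside 0.106% and 0.109%. Without AE replicate 1 it left 4, beside 0.129%. Without C6AE replicate 1 or 6FAE replicate 2 it left 5, beside 0.215% and 0.17%. The count was 8 without 6FAE replicate 1, beside 0.218% of all features, and rose to 12 without C6AE replicate 2, beside 0.556%. In the other 5 comparisons no cluster was called at an adjusted p under 0.05. At an unadjusted p under 0.05, 102 clusters (34%) were higher in C6FAE than in Ctr, beside 14.1% of all features. The counts were 67 (22.3%) against C6AE, 20 (6.67%) against 6FAE and 5 (1.67%) against CFAE, beside 11.2%, 3.93% and 1.06%. For AE against Basal there were 44 (14.7%) and for Basal against Ctr 15 (5%), beside 7.33% and 3.9%. Without C6AE replicate 1, 47 clusters (15.7%) were higher in C6FAE than in C6AE, beside 5.11% of all features, and without C6AE replicate 2 none was. Against 6FAE, none was called without 6FAE replicate 1, where 2 clusters (0.667%) remained at an unadjusted p under 0.05, beside 1.07% of all features.

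Cluster 212, at chr1:137473773-137497763, was the 1 cluster called both before and after centring. Its 4 rows had a listed pileup of 0.0538 and 0.0639 in Ctr, 0.131 and 0.270 in Basal, 0.236 and 0.314 in AE, and 0.675 and 0.392 in C6FAE. In the cocktails lacking 1 chemical it stood at 0.454 and 0.158 in C6AE, 0.252 and 0.479 in 6FAE, and 0.555 and 0.432 in CFAE. Ctr was lowest and did not overlap any other treatment. The log2 difference between C6FAE and Ctr was 1.96 (SE 0.35, limma adjusted p = 0.00464), and 1.49 after centring (adjusted p = 0.0142). This cluster also encloses 1 row with H3K4me3 between its own rows.

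Cluster 10, at chr4:144567774-144617386, contains the called row among its 6 rows. It stood at 0.0850 and 0.238 in Ctr, 0.171 and 0.129 in Basal, 0.435 and 0.386 in AE, and 0.527 and 0.629 in C6FAE, so that Ctr and Basal were low and AE intermediate. The log2 difference was 1.43 (SE 0.26, adjusted p = 0.00481) before centring and 0.96 (adjusted p = 0.0873) after centring.

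Cluster 7, at chr8:91060748-91105413, held the longest member row of 19528 bp among its 4 rows. Its listed pileup was 0.243 and 0.214 in Ctr, 0.206 and 0.128 in Basal, 0.225 and 0.258 in AE, and 0.616 and 0.607 in C6FAE. The 2 C6FAE libraries were above all 12 others, of which the highest was CFAE replicate 1 at 0.478. The log2 difference was 1.12 (SE 0.25, adjusted p = 0.0399), and 0.64 (adjusted p = 0.252) after centring.

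The 6 other called clusters lie at chr11:108804962-108815487 (cluster 120, a single row), chr13:44396776-44427235 (121), chr12:106774595-106795948 (184), chr13:59975316-59991963 (197), chr5:127790600-127805565 (214) and chr1:187396644-187421367 (272). Their log2 differences lay between 1.41 in cluster 184 and 2.00 in cluster 214, with adjusted p between 0.0170 and 0.0422. In each of the 9 clusters both C6FAE libraries were above both Ctr libraries, which is a condition close to the call itself. Cluster 214 was the emptiest in Ctr, with 0.0807 and 0.0234, beside 0.660 and 0.371 in C6FAE.

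**Figure D5:**
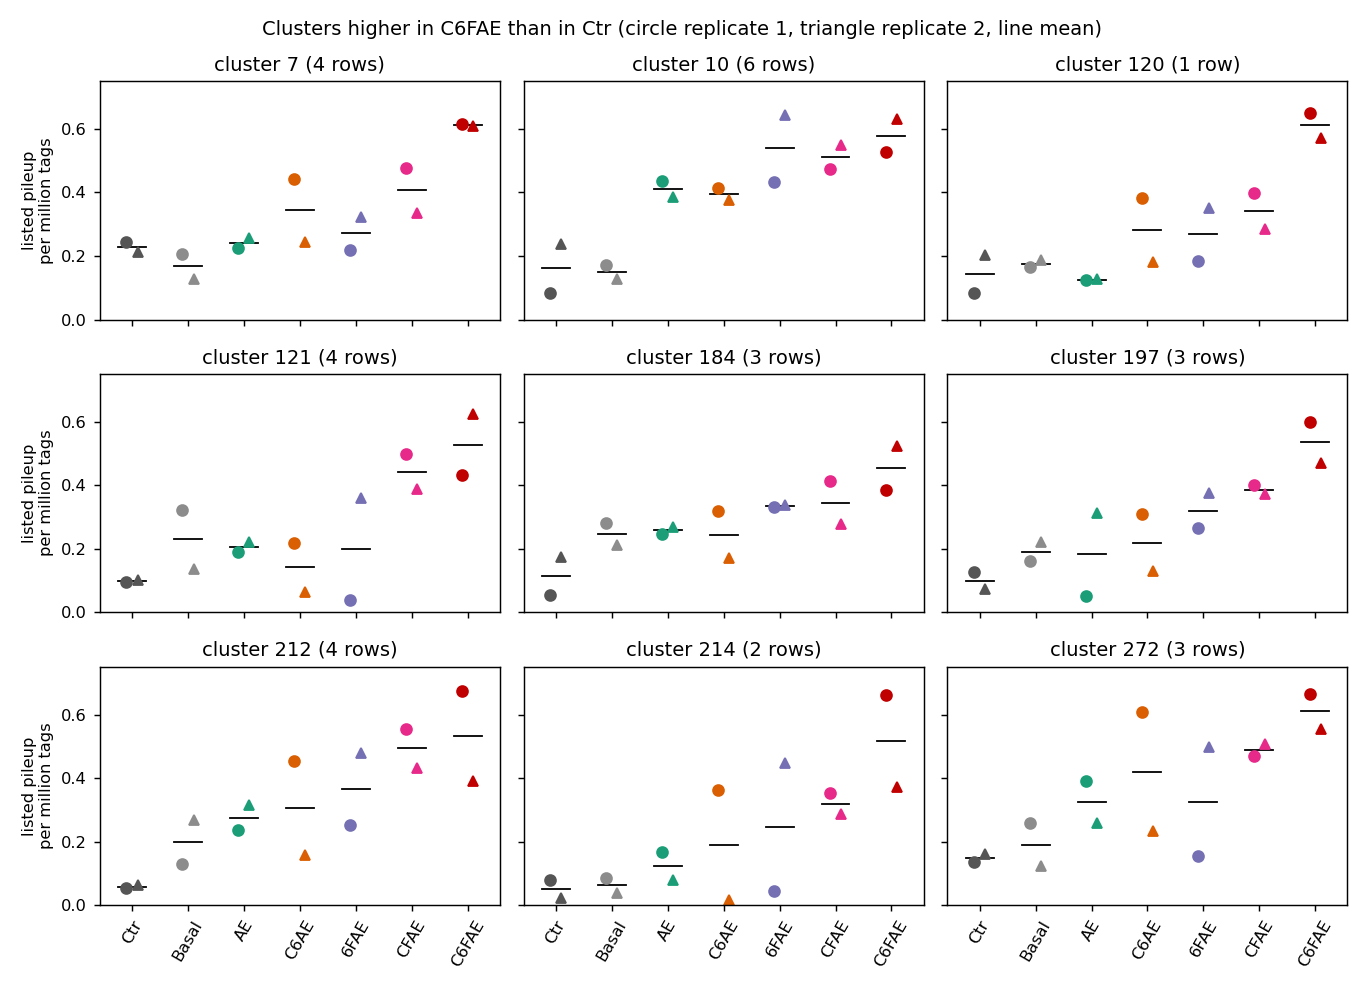
Listed pileup of the 9 clusters that were higher in C6FAE than in Ctr in the fit over clusters, by treatment (circle, replicate 1; triangle, replicate 2; line, mean of both). Both C6FAE libraries lie above both Ctr libraries in each panel, and Ctr is at most 0.243 while C6FAE is at least 0.371.

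One cluster was called lower after centring only. Cluster 267, at chr9:102535608-102553670, had a listed pileup of 0.749 and 0.510 in Ctr, 0.312 and 0.376 in Basal, 0.420 and 0.398 in AE, and 0.365 and 0.302 in C6FAE. Ctr was highest and the 12 other libraries were all below both of Ctr, with 6FAE replicate 2 closest at 0.506. Its log2 difference was -0.74 (SE 0.30, adjusted p = 0.227) before centring and -1.21 (adjusted p = 0.0366) after centring.

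The 5 largest clusters were not among the called ones. Cluster 1 had a listed pileup of 0.243 and 0.294 in Ctr and 0.481 and 0.459 in C6FAE, with a log2 difference of 0.63 (SE 0.23, adjusted p = 0.170). In clusters 2 to 5 the log2 difference was between 0.31 and 0.46, near the shift of the table, with adjusted p between 0.377 and 0.539.

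Clusters whose libraries did not overlap between treatments were counted as a description with and without the shift. Clusters hold more tags than most features, which makes such a separation easier, and the part of that in these shares was not tested. Over single member rows, C6FAE was above Ctr in 44.7% before centring, beside 38.3% of all rows. Before centring, both C6FAE libraries were above both Ctr libraries in 205 clusters (68.3%), beside 39.7% of all features, and below both in 11 (3.67%), beside 7.44%. After centring, the counts were 71 above (23.7%) and 90 below (30%), beside 18.3% and 26.4%. CFAE against Ctr gave 203 above (67.7%) and 3 below (1%), beside 37.7% and 6.08%, and after centring 65 above (21.7%) and 69 below (23%), beside 17% and 23.7%. AE against Ctr gave 190 above (63.3%) and 7 below (2.33%), beside 34.6% and 6.31%, and after centring 46 above (15.3%) and 89 below (29.7%), beside 15.6% and 24.2%. For C6FAE against C6AE there were 139 above (46.3%) and 5 below (1.67%) before centring, beside 35.3% and 5.53%, and after centring 33 above (11%) and 90 below (30%), beside 15.6% and 21.4%. Against 6FAE, 90 were above (30%) and 21 below (7%) before centring, beside 27.1% and 7.95%, and 45 above (15%) and 84 below (28%) after centring, beside 16.5% and 17.8%. Centring moves all features of a library alike, and in each of these 5 comparisons it turned the larger side from above to below. It did not do so in every comparison. After centring, C6AE against Ctr had 68 above (22.7%) and 40 below (13.3%), beside 17.6% and 16.3%. For 6FAE against Ctr there were 56 (18.7%) and 50 (16.7%), beside 14.6% and 20.3%. For C6FAE against AE there were 76 (25.3%) and 72 (24%), beside 20.4% and 22.1%. Without C6AE replicate 2, both C6FAE libraries were above the remaining C6AE library in 147 clusters (49%) and below it in 68 (22.7%), beside 42.7% and 23.4%, and after centring in 85 (28.3%) and 127 (42.3%), beside 32.1% and 35.3%. Without 6FAE replicate 1, they were above the remaining 6FAE library in 98 (32.7%) and below it in 106 (35.3%), beside 33.7% and 30.2%, and after centring in 89 (29.7%) and 124 (41.3%), beside 33.2% and 32.8%. Against a single library both sides are easier to meet, so these counts are read against their own shares over all features.

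Single rows within a cluster differed from each other. In the merged columns, neighbouring member rows of the same cluster had r = 0.15 for the log2 difference between C6FAE and Ctr (n = 804 pairs of rows). Neighbouring unmarked rows of the other stitched units had r = 0.10 (n = 4504 pairs), and neighbouring rows farther apart than the stitching distance 0.06 (n = 17669 pairs). All these values are weak, and RPKM of short rows rests on few tags. Of the 229 clusters with 3 or more rows, 81 (35.4%) had all rows higher in C6FAE than in Ctr, 2 had all rows lower and 146 were mixed. Taken singly, 76.4% of the members were higher, beside 77.2% of all rows. The share with all rows higher was not counted over the other stitched units. The median SD of the difference over the rows of a cluster was 0.68. The SD between clusters was 0.40, but it is taken over averages of rows, which vary less than single rows. These 2 values therefore do not show how far rows of a cluster agree. The 3 clusters with the closest rows were 51, 160 and 217, with 4 of 4, 4 of 4 and 2 of 3 rows higher. The 3 with the widest spread were 59, 121 and 129, with 3 of 5, 2 of 4 and 2 of 4 rows higher.

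The rows with the largest differences of log2(RPKM + 1) between C6FAE and Ctr, among those where both libraries of C6FAE were on the same side of both of Ctr, were short and often unlisted in 1 treatment. On the higher side 493 members (44.7%) met that condition, beside 38.3% of all rows, and on the lower side 77 (6.97%), beside 7.87%. After centring, the counts were 240 (21.7%) and 295 (26.7%), beside 18.9% and 26.1%, so the larger side turned with the scaling among the members as in the table. The largest difference was at chr11:86454550-86455706 in cluster 205, with 21.6 RPKM in C6FAE and 1.92 in Ctr. Its listed pileup was 0.637 and 0.465 in C6FAE, and no peak was listed there in either Ctr library. Next came chr1:93569864-93571489 in cluster 224 (19.8 against 1.83 RPKM), chr8:124680095-124682135 in cluster 14 (37.7 against 5.17 RPKM), chr12:88112686-88113858 in cluster 2 (14.4 against 1.76 RPKM) and chr10:76092073-76092856 in cluster 31 (29.2 against 4.40 RPKM). None of these 5 rows was called in the main limma fit across rows, with adjusted p between 0.128 and 0.400. With the spread modelled by the tags in a row, the row in cluster 14 was called (limma adjusted p = 0.0253).

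On the lower side, the largest difference was at chr3:145339405-145340265 in cluster 129. Its RPKM was 3.32 in C6FAE and 32.9 in Ctr, and its listed pileup was 0.968 and 0.440 in Ctr with no peak listed in either C6FAE library (limma adjusted p = 0.160). The same row was also among the lowest of C6FAE against 6FAE (11.7 RPKM) and CFAE (12.7 RPKM), which are comparisons that share the C6FAE libraries. The 4 others were chr16:92434872-92435380 in cluster 59 (3.57 against 25 RPKM), chr3:121276726-121277279 in cluster 281 (3.87 against 17.1 RPKM), chr17:78791494-78793227 in cluster 161 (4.38 against 18.0 RPKM) and chr10:120089307-120090374 in cluster 40 (7.35 against 28.1 RPKM). The adjusted p of these 4 rows lay between 0.285 and 0.486.

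Against the cocktails lacking 1 chemical, the same rule named 3 rows in each direction. For C6AE, which lacked Forskolin, the largest was chr15:38750800-38752176 in cluster 103, with 31.2 RPKM in C6FAE and 3.28 in C6AE, and a listed pileup of 0.645 and 0.612 against 0.00817 and no listed peak. On the lower side, chr17:29606950-29607901 and chr17:29581906-29582865, both in cluster 181, had 3.81 RPKM each in C6FAE and 22.5 and 22.1 RPKM in C6AE. Neither row had a listed peak in the C6FAE libraries. Their listed pileup in C6AE was 0.380 and 0.966 for the first row and 0.170 and 0.991 for the second, so the higher value of each came from C6AE replicate 2, the library that stood apart. Neither row was called.

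For 6FAE, which lacked CHIR99021, the largest was chr1:180994914-180996087 in cluster 88 (21.6 RPKM in C6FAE and 4.32 in 6FAE). On the lower side it was again chr3:121276726-121277279, with 3.87 RPKM in C6FAE and 18.9 in 6FAE. Its listed pileup was 0.519 in 6FAE replicate 1, the library that stood apart, and 0.211 in 6FAE replicate 2. For CFAE, which lacked RepSox, chr2:166294737-166295366 in cluster 99 had 12.7 RPKM in C6FAE and 1.39 in CFAE, and chr2:152501139-152501681 in cluster 171 had 8.19 and 30.3 RPKM. The other named rows of these 3 comparisons differed by 1.33 to 2.43 on the log2(RPKM + 1) scale in either direction. None of the 18 rows was called by limma, with adjusted p of at least 0.45 against C6AE, 0.97 against 6FAE and 1 against CFAE.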

How the data were processed

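ATAC-seq and ChIP-seq of MEFs on day 4 were used as deposited. The authors' notes name Bowtie2, MACS2, deepTools 3.1.0 and build mm9. Per the file headers, MACS 2.1.2 called peaks library by library without local background, using a p-value limit of 0.05 and tags extended to a fixed length. The deposited lists give the pileup signal, the fold enrichment, and the −log10 p-value and −log10 q-value of each peak. The headers state that q was not computed, yet the column holds values. The authors' RPKM tables hold 1 column per treatment, merged over the ATAC-seq libraries, so the replicate test needed the listed pileup.

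Log2(listed pileup scaled to 1000000 tags + 0.1) was fitted with limma 3.58.1 (R 4.3.3) with 7 group means, a variance trend and Benjamini-Hochberg adjustment over all rows. Log2(RPKM + 1) was described without a test. All p-values of limma are two-sided. The fits over rows were run on values simulated with normal noise and large known changes. Real values differ, since many rows hold no listed peak in a library. The fit over clusters was not simulated, so this run cannot speak for its calls. Descriptions used Python 3.11.15 with pandas 2.3.3 and scipy 1.17.1. Libraries were grouped by their treatment label. The 3 ChIP-seq samples titled as control but labelled C6FAE stayed out of all groups. Replicate numbers did not pair the libraries.

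Regions named are the 5 largest clusters, the 5 largest differences in each direction for C6FAE against Ctr and the 3 largest against C6AE, 6FAE and CFAE, the 3 clusters of closest and 3 of widest agreement, and those called by limma. The members and these rules were chosen with earlier results of these data known. The gene lists and motifs planned for build mm9 were not used here, since the annotation at hand is of another build, and no sequences are shown for the same reason. Alternatives were other pseudocounts, scalings, filters, peak thresholds, stitching distances and cluster numbers, leaving out each library, and a replicate block.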

Additional observations from a re-analysis of the deposited data

How the results depend on the processing

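The limits are those of 2 libraries per treatment, of values read from listed peaks only, and of merged columns without replicates. Of 272 recounts of called members, 254 stayed within 1.5 times the reported count or at 0, and of 260 recounts of called clusters 234 did. Most of these recounts belong to comparisons or directions without any reported call. Staying at 0 there says nothing about how stable the reported calls are, and many recounts of those calls moved. The count of members higher in C6FAE than in Ctr, reported as 1, was 3 with a pseudocount of 0.02 and with fold enrichment. Of all rows, 0.145% and 0.151% were called there. The count was 0 after centring and 0 with only those peaks whose −log10 q reached 1.3 (q-filtered peaks), beside 0% of all rows. It was 13 with the spread modelled by tags, a setting added after the data were seen, beside 0.236% of all rows. Leaving out each library gave 0 to 2 for that count and 0 to 1 for members lower in it, 0 to 28 for members higher in C6FAE than in C6AE, 0 to 1 for members lower in C6FAE than in CFAE, and 0 to 1 for members higher in Basal than in Ctr, which was also 1 with a pseudocount of 0.02 and with fold enrichment.

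The count of clusters higher in C6FAE than in Ctr, reported as 9, was 2 with a pseudocount of 0.02 and 1 after centring. It was 0 with quantile normalization, 0 with fold enrichment, 1 with q-filtered peaks and 3 with the replicate block. The shares of all features called were 0.116%, 0.0964%, 0.0257%, 0.045%, 0.44% and 0.132%, in the same order. Leaving out each library gave 0 to 12. One cluster was lower after centring. Clusters higher in C6FAE than in C6AE numbered 0 to 47 as each library was left out. With q-filtered peaks, 1 cluster each was called higher in C6FAE than in C6AE, 6FAE and CFAE, beside 0.466%, 0.386% and 0.289% of all features. Likewise 1 was called lower in C6FAE than in CFAE, beside 0.308%. Another 1 was lower in AE than in Basal and 1 higher in Basal than in Ctr, beside 0.119% and 0.151%. The cause of these changes was not tested. The replicate numbers did not pair the libraries, with correlations of same-numbered deviations from -0.16 to 0.03 over 15 pairs of treatments. With the replicate block, which leaves out Basal, the count of called members stayed at 1.

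Centring the RPKM columns turned the median difference over members from Ctr to -0.0229 in Basal, -0.0673 in AE, -0.0259 in CFAE and -0.0302 in C6FAE, and left 0.0579 in C6AE and 0.0155 in 6FAE. Quantile normalization gave 0.0180 in Basal, -0.0160 in AE, 0.0638 in 6FAE, 0.0028 in CFAE and 0.0024 in C6FAE. A pseudocount of 10 gave 0.17 in Basal, 0.24 in AE, 0.19 in 6FAE, 0.38 in CFAE and 0.34 in C6FAE. For Basal, stitching at 25000 bp gave 0.34 and 1000 clusters 0.33. The other 36 of 54 values stayed within the interval over members. Cluster 2 stood at -0.0186, cluster 3 at -0.12, cluster 4 at -0.0937 and cluster 5 at -0.16 after centring, and clusters 3 and 5 at -0.0398 and -0.0942 with quantile normalization. With q-filtered peaks, many named rows had no peak left in either treatment and gave no value.

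The share of members with a strong peak ran from 13.0 to 29.5% with 10000 peaks and from 37.7 to 75.5% with 50000. The share under H3K4me3 ran from 0.272 to 5.07% where −log10 q had to reach 5 and from 28.7 to 55.2% with every listed peak. For H3K27me3 the highest share was 0 at 5, and 7.52 to 51.5% of members lay under any listed peak.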

Other observations

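The 2 ChIP-seq libraries whose title says control and whose treatment label says C6FAE were put in no group. Counting peaks whose −log10 q reached 1.3, the H3K4me3 library had 21474 peaks and 92 members (8.33%) under one of them, which lies within the range of the other libraries. The H3K27me3 library had 908 peaks and 0 members under one.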
